A study of Mus musculus with 12 samples.

Results

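The collagen genes of the mouse were followed in 3 tissues, the gastrocnemius (a calf muscle rich in fast fibres), the liver and the white fat depot of the gonads (gonadal WAT). Members were the rows whose symbol had the form Col, a number, a and a number, and 44 symbols did so in the deposited tables of 22276 symbols. Of these, 7 stayed below 1 CPM (estimated counts per 1000000 of the library total) in all 12 libraries and were left out (*Col2a1*, *Col6a4*, *Col9a3*, *Col10a1*, *Col17a1*, *Col19a1* and *Col25a1*), which left 37 genes. They comprised 10 fibrillar chains, 8 basement membrane chains (the type IV chains with *Col15a1* and *Col18a1*), 5 type VI chains, 7 fibril-associated chains, 2 type VIII chains, 2 transmembrane chains and 3 others.

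In GRf/f mice, exon 3 of *Nr3c1*, which encodes the glucocorticoid receptor, lay between loxP sites, and GRmKO mice carried the same floxed alleles with a Cre recombinase under the skeletal muscle actin (Acta1) promoter. Male mice on C57BL/6J, aged 8 weeks at the start, drank 1% ethanol as vehicle or 100 µg/mL corticosterone (CORT) in the same vehicle for 4 weeks. The deletion was directed at myofibres, so fibroblasts, endothelial cells, liver and adipose tissue of GRmKO mice were not its target. Each of the 12 groups (3 tissues, 2 genotypes, 2 treatments) was represented by 1 library made from the pooled RNA of 3 mice. No group had a replicate library, so no difference below carries a test. The brackets are 95% exact binomial intervals of a ratio of counts and cover counting error only, not the spread between mice. Library totals lay between 19394572 and 20940660 estimated counts, and a floor of 3 counts corresponded to 0.143 to 0.155 CPM. *Nr3c1* stood at 113 CPM in the GRf/f vehicle and 90.4 CPM in the GRf/f CORT muscle library, against 46.4 and 35.5 CPM in the GRmKO muscle libraries. Within each tissue a gene was counted as rising or falling when it differed at least 2-fold on the log2(CPM + 0.5) scale, among genes with 1 CPM or more in at least 1 of the 4 libraries of that tissue. Log2 changes and folds below are on this scale, except folds against the floor, which use CPM alone. The brackets leave out the added 0.5 CPM, so they need not centre on the change they follow.

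Collagens are extracellular proteins whose chains wind around each other in a helix. Types I, III and V assemble into the banded fibrils that give tendon, muscle and fat depots their tensile strength, and are made mainly by fibroblasts and, in liver, by stellate cells. Type IV forms the sheet-like network of basement membranes around myofibres, adipocytes and vessels, types XV and XVIII lie at the border of that sheet, and type VI forms beaded filaments close to it. Glucocorticoids are known to restrain collagen synthesis in connective tissue.

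The chains of types I, III and IV carried most of what follows, and the promoter windows of those present in the RefSeq table (GRCm38.p6, 250 bases before to 50 bases after the start) are shown because genes that moved together lay in different arrangements. *Col4a1* and *Col4a2* lie head to head on chromosome 8 (*Col4a1* at 11198423-11312826, minus strand, 52 exons, and *Col4a2* at 11312805-11449287, plus strand, 48 exons), their annotated starts overlapping by 22 bases. Their windows (chr8:11312777-11313076, minus strand, and chr8:11312555-11312854, plus strand) shared 78 bases read from opposite strands. *Col3a1* (window chr1:45311288-45311587, plus strand) lies on chromosome 1 tail to tail with *Col5a2* at a distance of 24614 bases. *Col1a2* (window chr6:4505368-4505667, plus strand) lies on chromosome 6 and *Col1a1* on chromosome 11 (94936224-94953042, plus strand, 51 exons). Capitals mark the CCAAT box, read on either strand as CCAAT or ATTGG:
Col4a1: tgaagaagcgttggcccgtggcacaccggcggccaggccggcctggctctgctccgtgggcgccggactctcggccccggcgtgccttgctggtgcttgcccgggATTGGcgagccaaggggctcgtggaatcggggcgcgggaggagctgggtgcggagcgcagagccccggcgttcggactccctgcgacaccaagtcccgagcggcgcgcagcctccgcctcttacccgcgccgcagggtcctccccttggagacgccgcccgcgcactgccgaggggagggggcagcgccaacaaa
Col4a2: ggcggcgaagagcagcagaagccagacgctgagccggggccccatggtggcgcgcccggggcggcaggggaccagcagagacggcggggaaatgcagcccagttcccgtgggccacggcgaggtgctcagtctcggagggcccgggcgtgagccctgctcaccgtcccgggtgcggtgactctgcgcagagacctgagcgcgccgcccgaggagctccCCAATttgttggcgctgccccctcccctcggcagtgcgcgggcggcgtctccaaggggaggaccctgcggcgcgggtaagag
Col1a2: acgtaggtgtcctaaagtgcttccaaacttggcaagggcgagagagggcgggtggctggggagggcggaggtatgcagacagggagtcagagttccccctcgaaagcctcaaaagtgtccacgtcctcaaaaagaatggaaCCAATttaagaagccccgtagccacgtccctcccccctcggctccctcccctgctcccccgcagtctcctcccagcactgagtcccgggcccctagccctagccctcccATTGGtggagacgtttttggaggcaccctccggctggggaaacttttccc
Col3a1: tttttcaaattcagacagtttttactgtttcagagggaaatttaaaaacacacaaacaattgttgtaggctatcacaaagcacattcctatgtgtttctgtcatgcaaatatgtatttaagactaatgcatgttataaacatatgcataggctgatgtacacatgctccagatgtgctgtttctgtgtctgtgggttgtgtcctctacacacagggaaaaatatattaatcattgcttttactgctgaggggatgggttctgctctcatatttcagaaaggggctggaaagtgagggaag

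The *Col1a2* window held the CCAAT box at 2 places, the *Col4a1* and *Col4a2* windows at 1 place each, and the *Col3a1* window at none. Among 33 windows of 30 member genes, 10 held a CCAAT box (30.3%), against 37.4% of all 32851 windows. The GC box GGGCGG, on either strand, was present in 21 member windows (63.6%) and in 35.7% of all windows, and the TATA box TATAAA in 3 (9.09%, *Col3a1*, *Col11a2* and *Col13a1*) and 13.6%. The *Col3a1* window was the poorest in G and C of the member windows (37.7%) while that of *Col4a1* reached 74.0%. The consensus palindromic glucocorticoid response element was found in 3 of all windows (0.00913%) and in no member window, which says only that its letters were not in these 300 bases.

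The tissues differed in which collagens they contained. Collagen transcripts made up 0.0934% to 0.278% of the counts in the 4 muscle libraries, 0.0455% to 0.0504% in the liver libraries and 0.503% to 1.06% in the gonadal WAT libraries. Of the 37 genes, 35 passed the filter in muscle, 28 in gonadal WAT and 19 in liver. Levels between genes were compared per kilobase of the transcript named in the tables. The study's methods name a step that sums to genes, yet each row bears 1 transcript ID. Whether a row held that transcript alone or a sum over the gene is therefore not settled here. Levels and chain ratios per length rest on the named transcript's length. In muscle, *Col1a2* (median over 4 libraries 42.7 CPM per kb, range 14.8 to 89.9), *Col1a1* (42.4, range 12.7 to 82.8) and *Col3a1* (41.7, range 11.3 to 93.8) led with *Col4a1* (38.4, range 29.0 to 49.9), and these ranges overlapped. *Col4a2* (27.8), *Col6a1* (25.7) and *Col6a2* (25.4) came next on the same scale. In gonadal WAT the order began with *Col4a1* (240.9 CPM per kb, range 143 to 385), *Col3a1* (191, range 136 to 218) and *Col4a2* (174, range 95.9 to 304), again with overlapping ranges. Liver was dominated by *Col18a1*, the precursor of endostatin, at 65.8 to 76.4 CPM per kb, whereas the next gene, *Col4a1*, stayed at 2.66 to 3.47 CPM per kb. The *Col18a1* range did not overlap that of any other liver collagen. In CPM, *Col18a1* read 333 and 387 in the GRf/f vehicle and CORT liver libraries and 337 and 350 in the GRmKO ones. The *Col18a1* row read 11.0 to 19.5 CPM in muscle and 107 to 202 CPM in gonadal WAT.

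**Figure D1:**
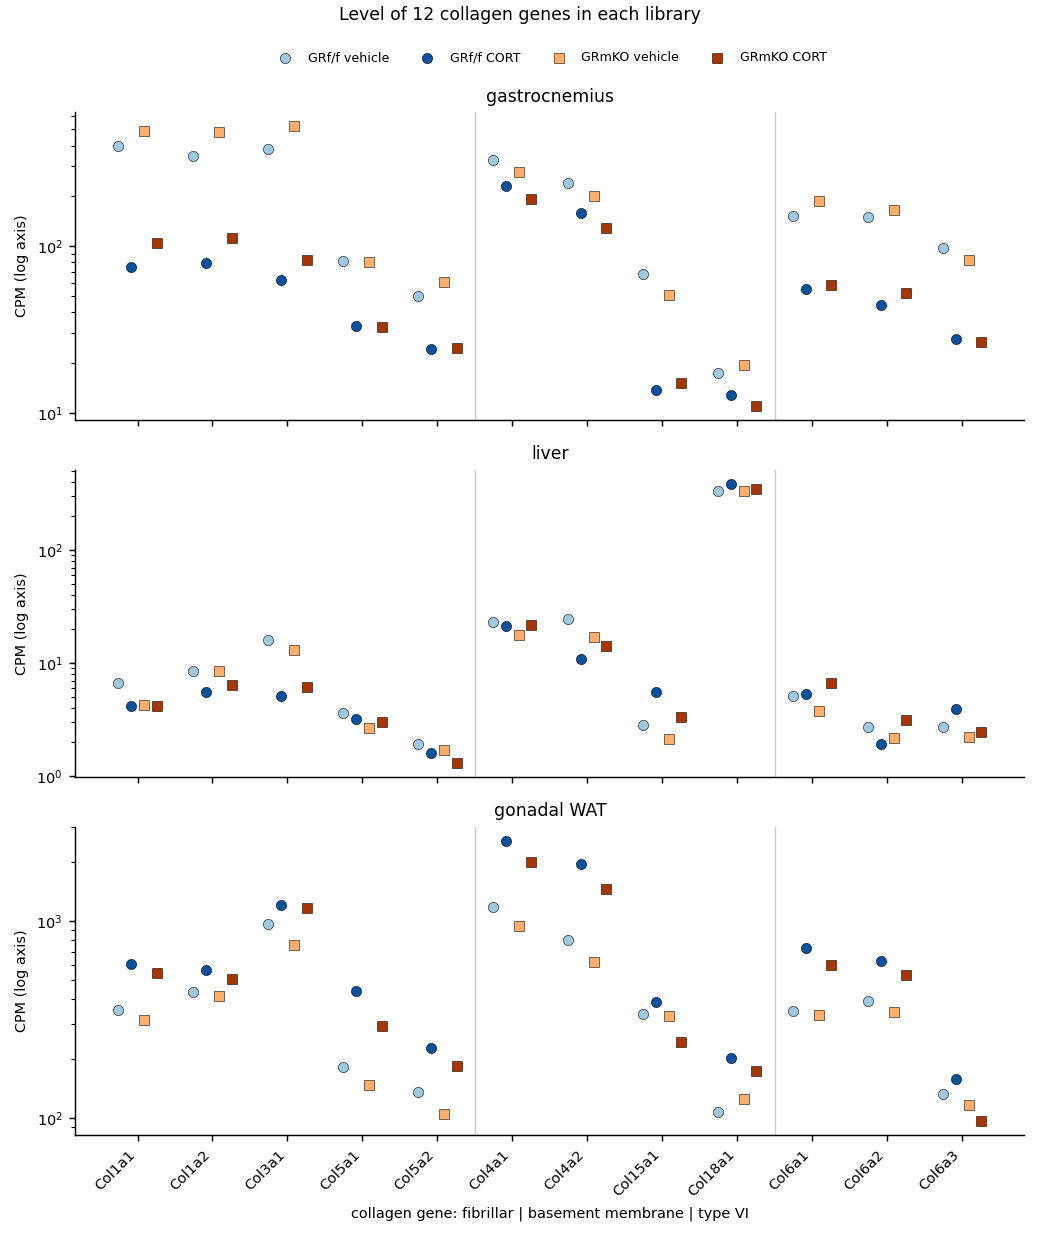
Level in CPM (log axis) of 12 collagen genes in each of the 12 libraries, 1 point per library, with a panel per tissue. In muscle both CORT points of every fibrillar gene shown sit below both vehicle points, in gonadal WAT both CORT points of the fibrillar genes and of *Col4a1* and *Col4a2* sit above both vehicle points, and in liver *Col18a1* stands apart from the other genes at 333 to 387 CPM.

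In gastrocnemius muscle, the collagens of the fibrils were far lower in the CORT libraries of both genotypes. *Col3a1*, the type III chain of elastic connective tissue, read 381 CPM with vehicle and 63.0 CPM with CORT in GRf/f, and 521.7 and 82.5 CPM in GRmKO. *Col1a1*, the main chain of type I collagen, read 399 and 75.1 CPM in GRf/f and 491 and 104 CPM in GRmKO. Its partner *Col1a2* read 345 and 79.0 CPM in GRf/f and 481 and 112 CPM in GRmKO. For each of these genes both vehicle libraries lay above both CORT libraries. The falls in GRf/f were 6.01-fold for *Col3a1* (log2 change -2.59 [-2.68, -2.51]), 5.29-fold for *Col1a1* (-2.40 [-2.49, -2.33]) and 4.34-fold for *Col1a2* (-2.12 [-2.21, -2.05]). In GRmKO they were 6.29-fold (-2.65 [-2.74, -2.59]), 4.70-fold (-2.23 [-2.31, -2.17]) and 4.29-fold (-2.10 [-2.17, -2.04]) respectively.

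Type V chains, which start fibrils and set their diameter, were lower by less. *Col5a1* read 81.3 CPM with vehicle and 33.0 CPM with CORT in GRf/f, and 80.6 and 32.9 CPM in GRmKO (-1.29 [-1.44, -1.17] and -1.28 [-1.43, -1.16]). *Col5a2* read 49.98 and 24.3 CPM in GRf/f and 61.2 and 24.5 CPM in GRmKO (-1.03 [-1.202, -0.88] and -1.30 [-1.47, -1.17]). Both chains fell in both genotypes. *Col5a3* did not reach 2-fold in either (75.2 to 47.6 CPM and 45.2 to 29.8 CPM). Per length, the ratio of *Col5a1* to *Col1a1* was 0.144 [0.136, 0.152] with vehicle and 0.310 [0.282, 0.341] with CORT in GRf/f, and 0.116 [0.110, 0.122] and 0.223 [0.204, 0.243] in GRmKO, so that the CORT libraries held more type V per type I transcript. The ratio of *Col1a1* to *Col1a2* moved less, from 1.04 [1.01, 1.08] to 0.857 [0.797, 0.921] in GRf/f and from 0.922 [0.896, 0.948] to 0.840 [0.791, 0.892] in GRmKO.

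The type VI chains, which join the basement membrane to the matrix beyond it, fell beside the fibrillar ones. *Col6a1* read 152 CPM with vehicle and 55.5 CPM with CORT in GRf/f and 186 and 58.7 CPM in GRmKO. *Col6a2* read 149 and 44.3 CPM, and 164 and 52.0 CPM. *Col6a3* read 97.6 and 27.6 CPM, and 83.0 and 26.5 CPM. All 3 chains lay between 2.72-fold and 3.48-fold lower in GRf/f and between 3.09-fold and 3.14-fold lower in GRmKO, with no overlap of vehicle and CORT libraries. *Col6a6* fell as well (15.5 to 3.55 CPM and 13.5 to 3.69 CPM), while *Col6a5*, at 1.11 and 1.90 CPM in GRf/f and 0.303 and 1.23 CPM in GRmKO, was the type VI chain with the opposite sign and rose in GRmKO (1.11 [0.72, 3.61]).

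Basement membrane chains were divided. *Col4a1* read 330 CPM with vehicle and 229 CPM with CORT in GRf/f and 280 and 192 CPM in GRmKO (-0.53 [-0.58, -0.47] and -0.54 [-0.60, -0.48]). *Col4a2* read 237 and 158 CPM and 200.02 and 127 CPM (-0.58 [-0.65, -0.52] and -0.65 [-0.72, -0.58]). Neither reached 2-fold, and the ratio of *Col4a1* to *Col4a2* per length stayed between 1.35 [1.30, 1.41] and 1.47 [1.40, 1.54] over the 4 libraries. *Col15a1*, which tethers the basement membrane to the fibrils beside it, fell from 67.8 to 13.6 CPM in GRf/f (4.83-fold, -2.27 [-2.51, -2.12]) and from 50.9 to 15.0 CPM in GRmKO (3.31-fold, -1.73 [-1.95, -1.57]). *Col18a1* read 17.3 and 12.8 CPM in GRf/f and 19.5 and 11.0 CPM in GRmKO. The rarer *Col4a3* and *Col4a4*, head-to-head neighbours whose genes lie 71 bases apart on chromosome 1, read 6.28 to 3.65 CPM and 5.72 to 5.09 CPM in GRf/f, and fell in GRmKO (4.76 to 1.87 CPM and 4.06 to 1.58 CPM). *Col4a5* fell from 2.35 to 0.842 CPM in GRf/f and from 2.53 to 0.339 CPM in GRmKO.

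Counted over the family, 15 of the 35 collagens that passed in muscle fell with CORT in GRf/f and none rose, where 6.44% of all 12998 genes fell and 4.63% rose. In GRmKO, 17 fell and 2 rose (*Col6a5* and *Col26a1*), where 6.92% of all genes fell and 2.74% rose. The median log2 change of the collagens was -0.72 in GRf/f and -0.96 in GRmKO (-1.11 with the genes at 0 in a library set at the floor), beside medians over all genes of -0.09 and -0.10. The genes that fell in both genotypes numbered 13, another 2 fell in GRf/f only by this threshold (*Col24a1* and *Col26a1*) and 4 in GRmKO only (*Col27a1*, *Col4a3*, *Col4a4* and *Col8a1*). Below the threshold, 28 of the 35 had a negative change in both genotypes. These are side-by-side values, and whether the response differed between the genotypes could not be tested with 1 library in each group. Fewer cells of a type and less RNA per cell cannot be told apart in these tissue libraries.

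**Figure D2:**
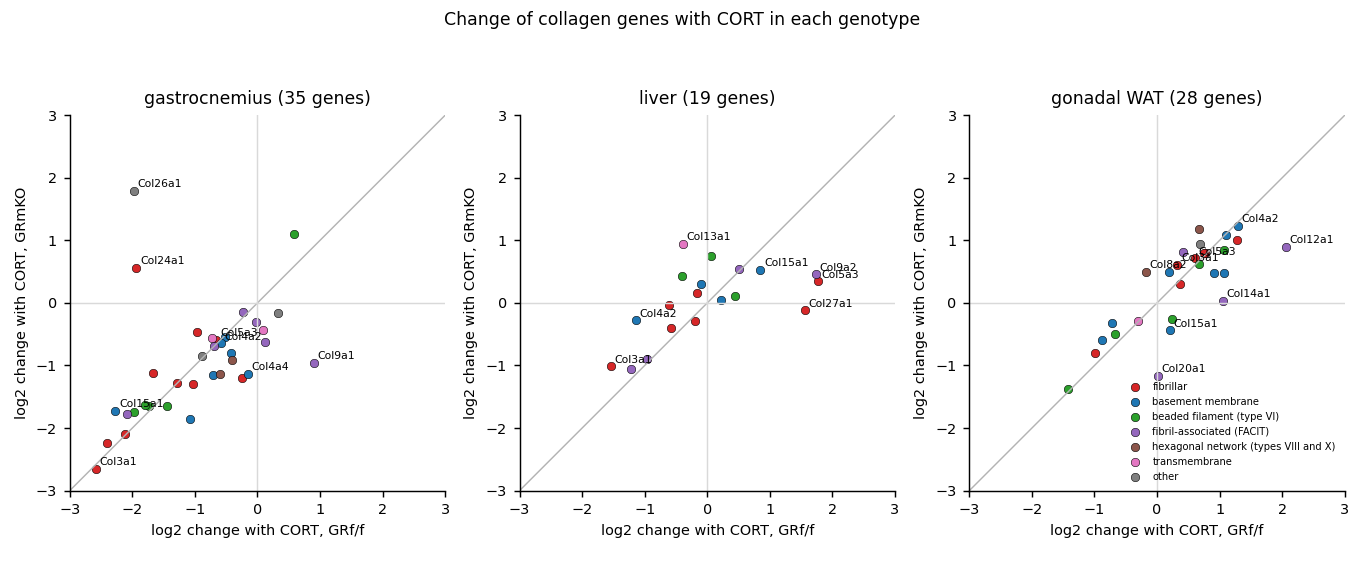
Change with CORT in GRf/f (horizontal axis) and in GRmKO (vertical axis), both as log2 change of CPM + 0.5, for the collagen genes that passed in each tissue, 1 point per gene coloured by class, with the diagonal marking an equal change. In muscle 28 of 35 points lie below 0 on both axes and in gonadal WAT 18 of 28 lie above 0 on both, while *Col24a1* and *Col26a1* in muscle have opposite signs.

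Collagens of lower level in muscle were mixed. *Col14a1*, a fibril-associated chain, fell with the fibrillar ones, from 12.3 to 2.52 CPM in GRf/f (-2.09 [-2.76, -1.84]) and from 19.1 to 5.26 CPM in GRmKO (-1.77 [-2.19, -1.55]). The related *Col12a1* read 6.83 and 7.51 CPM in GRf/f and 7.25 and 4.54 CPM in GRmKO, and *Col22a1*, a component of the junction of muscle and tendon, read 17.99 and 17.6 CPM, and 10.4 and 8.36 CPM. Neither reached 2-fold with CORT. *Col24a1*, a minor fibrillar chain, fell from 6.13 to 1.23 CPM in GRf/f (-1.93 [-3.01, -1.67]) and read 4.66 and 7.14 CPM in GRmKO (0.57 [0.22, 1.00]). *Col8a1*, a type VIII chain of vessel walls, read 6.43 and 4.06 CPM in GRf/f and fell from 15.1 to 6.59 CPM in GRmKO. *Col9a1* was at 0.676 and 1.70 CPM in GRf/f (0.90 [0.41, 2.43]) and at 0.469 and 0 CPM in GRmKO. *Col26a1* was at 1.46 CPM and 0 in GRf/f, at least 9.42-fold lower with CORT against the floor of 3 counts, and at 0 and 1.23 CPM in GRmKO, at least 8.22-fold higher. Rows at 0 in a library beside values of this size came from estimated counts, in which a transcript can be left without reads. *Col7a1*, the anchoring fibril chain, read 18.7 and 23.8 CPM in GRf/f and 4.91 and 4.32 CPM in GRmKO.

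The genotypes differed less than the treatments. With vehicle, 1 collagen was at least 2-fold higher in GRmKO muscle (*Col8a1*, 6.43 against 15.1 CPM) and 3 were lower (*Col7a1*, *Col26a1* and *Col6a5*), where 6.68% of all genes were higher and 4.36% lower. With CORT, 2 were higher (*Col24a1* and *Col26a1*) and 5 lower (*Col7a1*, *Col9a1*, *Col4a4*, *Col27a1* and *Col22a1*), where 6.19% and 6.72% of all genes were. Of these, *Col9a1* passed the filter through the GRf/f CORT library alone, so that its difference from that library is partly set by the filter. *Col7a1* lay 3.55-fold lower in GRmKO with vehicle (-1.83 [-2.26, -1.60]) and 5.04-fold lower with CORT (-2.33 [-2.80, -2.13]), and both GRf/f libraries lay above both GRmKO libraries. *Col22a1* was also higher in both GRf/f libraries (-0.76 [-1.04, -0.54] with vehicle and -1.03 [-1.35, -0.81] with CORT). The type I and III chains stood the other way without reaching 2-fold, at 0.30 for *Col1a1*, 0.48 for *Col1a2* and 0.45 for *Col3a1* with vehicle and 0.47, 0.50 and 0.39 with CORT. *Col5a1* was nearly level, at -0.01 [-0.11, 0.09] and -0.01 [-0.16, 0.15]. *Col5a3* was at -0.73 and -0.66, *Col4a1* at -0.24 and -0.25, and *Col4a2* at -0.25 and -0.31.

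The lists of cell type markers in muscle differed in direction. The summed level of 12 fibroblast markers in muscle was 2680 CPM with vehicle and 2098 CPM with CORT in GRf/f, and 3892 and 2516 CPM in GRmKO, of which *Gsn* made 63.4% and *Tcf21* was at 0 in every library. *Pdgfra*, a defining fibroblast receptor, read 46.9 and 32.4 CPM in GRf/f and 48.5 and 32.5 CPM in GRmKO. Of the 11 fibroblast markers that passed, 3 fell with CORT in GRf/f and 5 in GRmKO, where 6.44% and 6.92% of all genes fell. The 8 tendon markers summed to 251 and 177 CPM in GRf/f and 524.98 and 261 CPM in GRmKO, and the 10 macrophage markers to 171 and 175 CPM and 566 and 218 CPM (median changes 0.058 and -1.33), so the GRmKO vehicle library stood highest on both lists. Endothelial markers (12 genes) ranged from 425 to 557 CPM and mural markers (9 genes) from 677 to 899.9 CPM over the 4 libraries. The 9 adipocyte markers summed to 959 and 1315 CPM and 1102 and 1158 CPM. Of these, 7 and 6 were at least 2-fold higher with CORT, where 4.63% and 2.74% of all genes were. The 9 hepatocyte markers summed to 45.6 and 113 CPM and 134 and 375 CPM. The 9 myofibre markers, led by *Acta1*, summed to 90637 to 123177 CPM, and the 8 Schwann cell markers to 216 to 424 CPM. The part of these cell types in the collagen values was not tested.

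In liver collagens made up the smallest share of the counts. With CORT in GRf/f 6 of 19 passed 2-fold, where 7.54% of all genes rose and 7.71% fell. In GRmKO 2 of 19 did, where 4.45% of all genes rose and 4.35% fell. With CORT in GRf/f, *Col5a3*, a type V chain, rose from 4.25 to 15.8 CPM (1.77 [1.55, 2.25]), against 7.87 and 10.1 CPM in GRmKO (0.34 [0.06, 0.66]). *Col27a1*, a minor fibrillar chain, rose from 5.43 to 16.99 CPM in GRf/f (1.56 [1.33, 1.96]), against 9.17 and 8.39 CPM in GRmKO (-0.12 [-0.44, 0.17]). For both genes the GRf/f CORT library was the highest of the 4 and the GRf/f vehicle library the lowest. *Col3a1* fell in both genotypes, from 15.9 to 5.12 CPM (-1.54 [-1.96, -1.31]) and from 13.0 to 6.17 CPM (-1.01 [-1.39, -0.76]). *Col4a2* fell from 24.5 to 10.9 CPM in GRf/f (-1.14 [-1.41, -0.94]) and read 17.1 and 14.1 CPM in GRmKO (-0.28 [-0.52, -0.06]). Its neighbour *Col4a1* read 22.9 and 21.3 CPM, and 17.6 and 21.8 CPM, so that the ratio of *Col4a1* to *Col4a2* per length went from 0.911 [0.802, 1.03] to 1.91 [1.61, 2.25] in GRf/f and from 1.00 [0.861, 1.16] to 1.52 [1.31, 1.76] in GRmKO.

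Other liver collagens were mostly lower in level or short of 2-fold. *Col14a1* read 17.8 and 8.86 CPM in GRf/f and 18.4 and 9.67 CPM in GRmKO (-0.97 and -0.90), just short of 2-fold. *Col1a1* (6.69 and 4.19 CPM, and 4.27 and 4.17 CPM), *Col1a2* (8.46 and 5.51 CPM, and 8.55 and 6.33 CPM), *Col5a1* (2.67 to 3.63 CPM), *Col5a2* (1.30 to 1.91 CPM), *Col6a1* (3.79 to 6.67 CPM), *Col6a2* (1.94 to 3.14 CPM) and *Col6a3* (2.23 to 3.90 CPM) stayed within 2-fold in all 4 comparisons. *Col15a1* read 2.84 and 5.52 CPM in GRf/f and 2.14 and 3.31 CPM in GRmKO. *Col9a2* passed through the GRf/f CORT library alone, at 0.0478 CPM with vehicle and 1.32 CPM with CORT, and *Col16a1* (0.670 CPM and 0 in GRf/f, 1.36 and 0.393 CPM in GRmKO) through the GRmKO vehicle library alone. *Col13a1* read 1.27 to 2.90 CPM and *Col12a1* 0.859 to 1.57 CPM.

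Of the 19 liver collagens, 3 rose with CORT in GRf/f (*Col5a3*, *Col9a2* and *Col27a1*) and 3 fell (*Col3a1*, *Col4a2* and *Col16a1*), where 7.54% of all 11627 genes rose and 7.71% fell. In GRmKO none rose and 2 fell (*Col3a1* and *Col16a1*), where 4.45% rose and 4.35% fell. Between genotypes no collagen differed 2-fold with vehicle (2.57% of all genes higher in GRmKO and 2.46% lower), and 1 was lower in GRmKO with CORT (*Col9a2*, with 4.04% of all genes higher and 3.56% lower). *Col9a2* was kept through the GRf/f CORT library, and *Col16a1* through the GRmKO vehicle library, so their differences from those libraries are partly set by the filter and stand as description only. *Col27a1*, at -0.98 [-1.29, -0.75] between the genotypes with CORT, lay just inside the threshold. The 9 stellate cell markers summed to 163 and 132 CPM in GRf/f and 179 and 153 CPM in GRmKO, with *Lrat* at 11.2 and 7.90 CPM and 8.88 and 7.05 CPM. Macrophage markers summed to 238 and 82.8 CPM and to 195 and 126 CPM, with 7 and 1 of 9 markers at least 2-fold lower, and fibroblast markers ranged from 127 to 169 CPM. Whether these cells account for any of the changes was not tested.

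In gonadal WAT the direction was opposite to that in muscle. *Col4a1* rose from 1184 to 2549 CPM in GRf/f (1.11 [1.08, 1.13]) and from 949 to 2003 CPM in GRmKO (1.08 [1.05, 1.10]). *Col4a2* rose from 799 to 1961 CPM (1.29 [1.27, 1.32]) and from 618 to 1450.5 CPM (1.23 [1.199, 1.26]). For both, the CORT libraries lay above the vehicle libraries without overlap. Their ratio per length went from 1.45 [1.42, 1.47] to 1.27 [1.25, 1.28] in GRf/f and from 1.496 [1.46, 1.53] to 1.35 [1.33, 1.37] in GRmKO. *Col18a1* read 107 and 202 CPM in GRf/f (0.91 [0.84, 0.99]) and 124 and 173 CPM in GRmKO (0.48 [0.40, 0.55]). *Col15a1* read 337 and 387 CPM in GRf/f and 329 and 243 CPM in GRmKO, a change of 0.20 [0.15, 0.25] in the former and of -0.44 [-0.49, -0.38] in the latter.

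Among the fibrillar chains, *Col5a1* passed 2-fold, from 181 to 439 CPM in GRf/f (1.28 [1.22, 1.33]) and from 147 to 295 CPM in GRmKO (1.00 [0.94, 1.07]), the latter at the threshold itself. *Col1a1* read 355 and 603 CPM in GRf/f and 313 and 547 CPM in GRmKO (0.76 and 0.80). *Col1a2* read 435 and 563 CPM, and 416 and 510 CPM (0.37 and 0.30), and *Col3a1* read 968 and 1211 CPM, and 757 and 1159 CPM (0.32 and 0.61). For each the CORT libraries were above the vehicle libraries of both genotypes. *Col5a2* (0.74 and 0.79) and *Col5a3* (0.61 and 0.71) were likewise higher without reaching 2-fold. The ratio of *Col1a1* to *Col1a2* per length went from 0.736 [0.713, 0.760] to 0.965 [0.940, 0.990] in GRf/f and from 0.679 [0.657, 0.702] to 0.966 [0.940, 0.992] in GRmKO.

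Type VI chains did not move together in fat. *Col6a1* rose from 349 to 734 CPM in GRf/f (1.07 [1.03, 1.11]) and read 332 and 599 CPM in GRmKO (0.85 [0.81, 0.90]). *Col6a2* read 393 and 625 CPM, and 344 and 532 CPM. *Col6a3*, the chain that gives rise to endotrophin, read 133 and 157 CPM in GRf/f and 116 and 96.9 CPM in GRmKO (0.24 [0.17, 0.32] and -0.26 [-0.35, -0.17]). Per length, *Col6a3* relative to *Col6a1* went from 0.173 [0.165, 0.181] to 0.0975 [0.0938, 0.101] in GRf/f and from 0.159 [0.152, 0.167] to 0.0737 [0.0702, 0.0773] in GRmKO. *Col6a6* fell in both, from 22.4 to 8.05 CPM (-1.42 [-1.75, -1.22]) and from 20.4 to 7.52 CPM (-1.38 [-1.72, -1.17]), as it did in muscle, and its neighbour *Col6a5* read 44.7 and 27.9 CPM, and 37.0 and 26.1 CPM.

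The fibril-associated *Col12a1* had the largest rise of any collagen in fat, from 5.43 to 24.2 CPM in GRf/f (2.06 [1.85, 2.47]), against 7.15 and 13.7 CPM in GRmKO (0.89 [0.64, 1.24]). *Col14a1* rose from 27.1 to 56.7 CPM in GRf/f (1.05 [0.91, 1.21]) and was nearly level at 40.0 and 41.0 CPM in GRmKO (0.03 [-0.11, 0.18]). *Col4a5* rose from 2.97 to 6.81 CPM in GRf/f and read 7.31 and 10.4 CPM in GRmKO. *Col8a1* read 12.8 and 20.8 CPM in GRf/f and rose from 9.42 to 22.1 CPM in GRmKO. *Col20a1*, which passed through the GRmKO vehicle library alone at 1.06 CPM, was at 0.198 CPM in the GRmKO CORT library.

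Over the 28 collagens of gonadal WAT, 7 rose and 1 fell with CORT in GRf/f, where 6.77% of all 13491 genes rose and 9.9% fell. In GRmKO 4 rose and 2 fell, where 4.91% rose and 7.06% fell. Of the 2 that fell, *Col20a1* was kept through the GRmKO vehicle library alone, so its fall is partly set by the filter. The collagen medians were 0.51 and 0.49, beside -0.07 and -0.13 over all genes. The genes that rose in both genotypes were 3 (*Col4a1*, *Col4a2* and *Col5a1*), and 18 of 28 had a positive change in both. Between genotypes 1 collagen was at least 2-fold higher in GRmKO with vehicle (*Col4a5*, 2.97 against 7.31 CPM) and none was lower, where 1.95% and 2.33% of all genes were. With CORT none differed 2-fold, where 2.62% were higher and 2.27% lower. The collagen medians were -0.16 with vehicle and -0.16 with CORT, and 21 and 19 of the 28 genes lay below 0, *Col5a3* (-0.62 and -0.52) and *Col4a2* (-0.37 and -0.43) among them.

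Markers of other cell types also moved in fat. The 12 endothelial markers summed to 1055 CPM with vehicle and 386 CPM with CORT in GRf/f and to 969 and 535 CPM in GRmKO. Of these, 10 and 3 were at least 2-fold lower, where 9.9% and 7.06% of all genes were. *Pecam1* read 98.5 and 36.6 CPM, and 100.5 and 57.8 CPM. The 9 mural markers summed to 1236 and 764 CPM and to 1199 and 781 CPM. The 10 macrophage markers summed to 1144 and 2609 CPM and to 1410 and 2548 CPM. Of these, 5 and 1 were at least 2-fold higher, where 6.77% and 4.91% of all genes were. Fibroblast markers summed to 10820 and 9966 CPM and to 14030 and 10271 CPM, of which *Gsn* made 82.8%, and *Pdgfra* read 41.0 and 49.0 CPM, and 43.0 and 40.2 CPM. The 9 adipocyte markers summed to 35456 to 42335 CPM, the 7 mesothelial markers to 310 to 445 CPM and the 8 epididymis markers to 0.248 to 1.60 CPM, with *Defb20*, *Lcn5*, *Lcn9* and *Crisp1* at 0 in every fat library. Their part in the collagen changes was not tested.

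**Figure D3:**
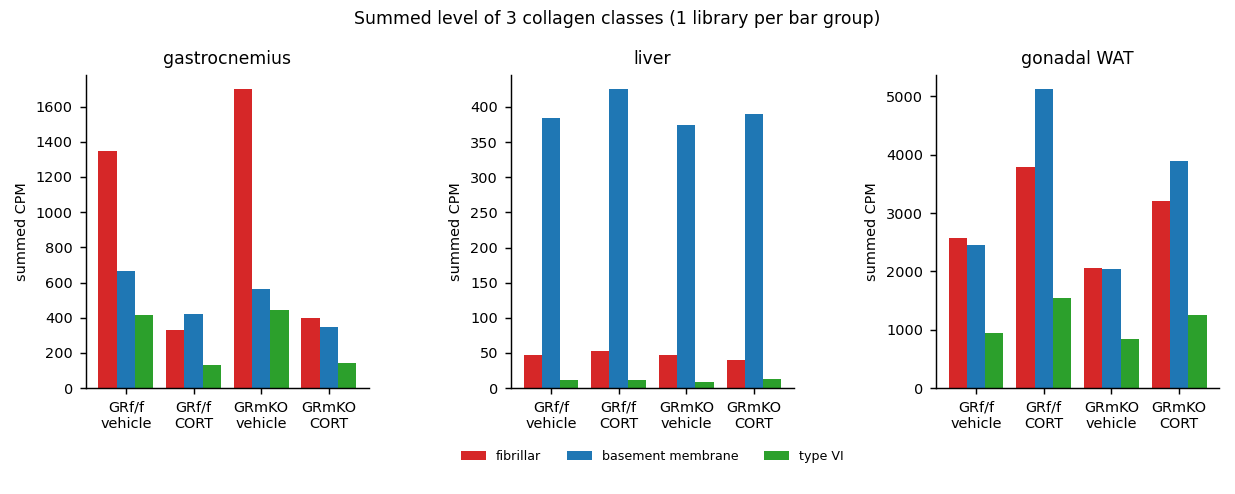
Summed CPM of the fibrillar, basement membrane and type VI collagens in each library, chains below the filter included, 1 bar per class and library, with a panel per tissue and its own vertical axis from 0. In muscle the fibrillar bar is 1350.2 CPM with vehicle and 329 CPM with CORT in GRf/f, and in gonadal WAT the basement membrane bar is 2448 CPM with vehicle and 5119.6 CPM with CORT in GRf/f.

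Muscle and fat could be set side by side for the 27 collagens that passed in both. Of these, 24 had a negative change with CORT in both genotypes in muscle and 17 a positive change in both in fat, and 16 did both: *Col1a1*, *Col1a2*, *Col3a1*, *Col5a1*, *Col5a2*, *Col5a3*, *Col4a1*, *Col4a2*, *Col4a5*, *Col18a1*, *Col6a1*, *Col6a2*, *Col14a1*, *Col16a1*, *Col8a1* and *Col28a1*. The table rows of *Col4a5* named different transcripts in the 2 tissues (3511 bases in muscle and 6285 in fat). *Col4a3*, *Col4a4*, *Col6a6* and *Col27a1* had a negative change in both genotypes in both tissues. Whether the muscle and fat RNA came from the same mice is not given in the sources used here.

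The fibrillar and basement membrane classes were compared by their medians and by their summed levels. In muscle with CORT, the 10 fibrillar genes had a median of -1.48 and the 7 basement membrane genes of -0.58 in GRf/f, a difference of -0.90, while in GRmKO the medians were -1.24 and -1.14, a difference of -0.11. By summed level the difference was alike in the genotypes, at -1.38 and -1.40, since the sums were carried by *Col4a1* and *Col4a2* on one side and by *Col1a1*, *Col1a2* and *Col3a1* on the other. The fibrillar sum went from 1350.2 to 329 CPM in GRf/f and from 1697 to 399 CPM in GRmKO, and the basement membrane sum from 667 to 424 CPM and from 562 to 349 CPM. Class sums in CPM, here and for fat, also take in chains below the filter, such as *Col2a1*, which the differences leave out. The ratio of the sums went from 2.02 to 0.777 in GRf/f and from 3.02 to 1.14 in GRmKO. Between genotypes the fibrillar median exceeded that of the basement membrane genes by 0.36 with vehicle and 0.65 with CORT. With vehicle 5 of the 10 fibrillar genes lay above 0 and 5 below, and with CORT 7 above and 3 below, while 5 and 6 of the 7 basement membrane genes lay below 0.

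In gonadal WAT both classes moved up with CORT, with fibrillar medians of 0.61 and 0.71 and basement membrane medians of 0.56 and 0.48 in GRf/f and GRmKO. The difference of medians was 0.05 and 0.23, and turned to -0.50 and -0.29 by summed level, where *Col4a1* and *Col4a2* carried most of the basement membrane sum. The fibrillar sum went from 2566 to 3789 CPM in GRf/f and from 2057 to 3213 CPM in GRmKO, and the basement membrane sum from 2448 to 5119.6 CPM and from 2044 to 3896 CPM. In liver the differences of medians were -0.25 and -0.30 over 7 fibrillar and 4 basement membrane genes, and *Col18a1* carried the latter sum. By summed level they were 0.032 and -0.31, so that the sign turned in GRf/f.

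**Figure D4:**
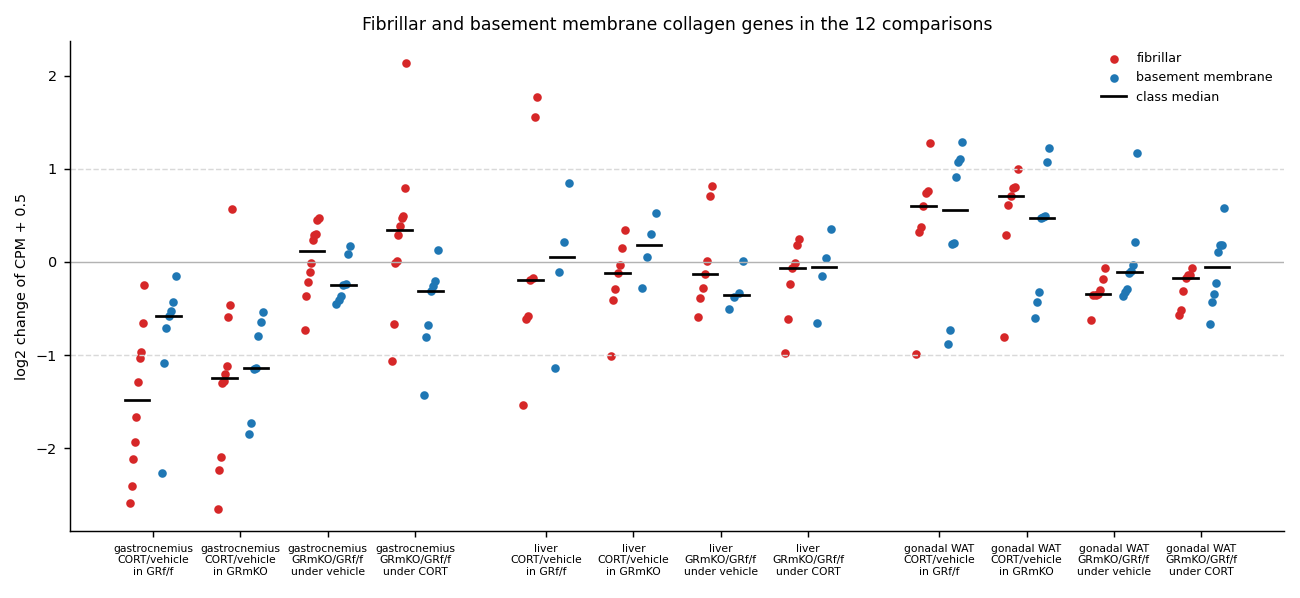
Log2 change of CPM + 0.5 of each fibrillar (red) and basement membrane (blue) collagen gene in the 12 comparisons, 1 point per gene, with a bar at the class median and dashed lines at 2-fold. In muscle with CORT the fibrillar medians lie at -1.48 in GRf/f and -1.24 in GRmKO, and in gonadal WAT both class medians lie above 0.

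Genes that make, process, bind and degrade collagen were read from lists of other genes. In muscle with CORT, where 6.44% of all genes fell and 4.63% rose in GRf/f and 6.92% fell and 2.74% rose in GRmKO, 3 of 18 synthesis and secretion genes fell in GRf/f and none rose, and 2 fell and 1 rose in GRmKO. That is 16.7% and 11.1% of the list falling, with medians of -0.39 and -0.50. *Fkbp10*, a chaperone of procollagen folding, fell from 10.7 to 4.56 CPM and from 14.3 to 5.85 CPM. *P4ha1*, a subunit of prolyl 4-hydroxylase, read 30.9 and 38.7 CPM in GRf/f and rose from 5.05 to 26.3 CPM in GRmKO. Of 12 processing and cross-linking genes 3 and 2 fell and 1 rose in each genotype. *Pcolce*, the enhancer of procollagen C-proteinase, fell from 65.9 to 28.3 CPM and from 90.1 to 37.3 CPM, whereas *Lox*, the lysyl oxidase that starts cross-links, rose from 15.5 to 46.1 CPM (1.54 [1.38, 1.73]) and from 19.7 to 41.3 CPM (1.05). Of 12 genes for collagen degradation and its inhibitors, 3 fell in GRf/f and 6 in GRmKO, and 1 rose in GRf/f. Among those that fell was the gelatinase *Mmp2* (89.7 to 28.6 CPM and 143 to 43.1 CPM). The list mixes enzymes with their inhibitors, so its counts do not give a direction of collagen breakdown.

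Among fibril-binding proteoglycans and glycoproteins in muscle, 5 of 19 fell in GRf/f and 9 in GRmKO, and 1 rose in each. Fibronectin (*Fn1*) fell from 102 to 31.7 CPM and from 125 to 29.8 CPM, and thrombospondin 1 (*Thbs1*) rose from 15.4 to 47.9 CPM and from 19.9 to 47.2 CPM. Laminins and other basement membrane partners were nearer to level, with 1 and 3 of 14 falling and medians of -0.20 and -0.53. Of the TGF-beta axis, the best-known inducer of fibrillar collagen genes, 2 of 15 fell in each genotype and none rose. The list was nearly level, with medians of 0.0 in GRf/f (7 genes above 0 and 7 below) and -0.08 in GRmKO (6 above and 9 below). *Ltbp4*, a binding protein of latent TGF-beta, fell from 240.2 to 97.5 CPM and from 276 to 120.4 CPM. Of 9 collagen receptors 1 fell in each genotype (*Itga11*, the integrin alpha 11 chain, 15.2 to 6.63 CPM and 11.6 to 4.92 CPM), and 1 rose in GRmKO. The latter, *Itga10*, went from an estimated 0 to 1.67 CPM, a low level at which the change depends on the 0.5 CPM added.

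In gonadal WAT, where 6.77% of all genes rose and 9.9% fell with CORT in GRf/f and 4.91% rose and 7.06% fell in GRmKO, 6 of 13 processing and cross-linking genes rose in GRf/f (46.2%) and 1 in GRmKO (7.69%), and none fell. *Lox* rose from 45.3 to 393 CPM in GRf/f (3.10) and from 46.9 to 293 CPM in GRmKO (2.63). Of 18 fibril-binding genes 6 and 3 rose and 1 fell in each, *Thbs1* from 34.8 to 428 CPM in GRf/f and *Fbn1*, fibrillin 1, from 160 to 658 CPM in GRmKO. Of 14 genes in the mixed list of collagen degradation and its inhibitors, 6 and 4 rose and 3 and 2 fell. The macrophage elastase *Mmp12* rose from 16.8 to 122 CPM and from 36.7 to 127 CPM. Of 18 synthesis genes 2 rose and 1 fell in GRf/f, and 1 rose and none fell in GRmKO. Of 8 receptors none rose, 1 fell in GRf/f (*Ddr1*, a collagen-binding receptor tyrosine kinase, 52.1 to 16.6 CPM) and none in GRmKO, and 5 and 7 lay below 0. None of 15 laminin partners reached 2-fold, with medians of 0.49 in GRf/f and -0.09 in GRmKO, and 5 and 8 of them lay below 0. In GRf/f the laminin chain *Lamc1* read 286 and 557 CPM and nidogen 1 (*Nid1*) 757 and 1461 CPM. In liver with CORT, 3 of 15 synthesis genes rose and 2 fell in GRf/f (median 0.056), and 1 rose and none fell in GRmKO, where 7.54% and 4.45% of all genes rose and 7.71% and 4.35% fell. The processing list had none of 8 at 2-fold, and in the other lists between 0 and 4 genes fell and between 0 and 1 rose.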

How the data were processed

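RNA of gastrocnemius, liver and gonadal WAT was sequenced as 12 libraries, each from 3 pooled mice, on a DNBSEQ-G400. Per the study's methods and processing notes, the authors quantified reads with Salmon (1.2.1) against GENCODE M20 protein-coding transcripts (mm10) and imported them in R (3.5.0) with tximport, so the deposited values are estimated counts, scaled by transcript length. The methods name the summarizeToGene function of tximport, but each row bears 1 transcript ID. Where a symbol occurred more than once, the entry with the largest total was kept. If rows are single transcripts, a change of isoform can move a row. Of the 37 collagens, 29 have the same transcript in all tissues. Levels per kilobase, coordinates and exons use GENCODE M21, of the same build.

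CPM was computed from library totals and changes as log2 of CPM with 0.5 CPM added, which understates changes of low genes. Genes with at least 1 CPM in 1 of the 4 libraries of a tissue were kept, and a 2-fold difference was counted as a change. Intervals are 95% exact (Clopper-Pearson) binomial intervals of the ratio of 2 counts. The authors ranked genes with NOISeq, which simulates the missing replicates; it was not run here. Named genes were 12 core chains, the 5 largest rises and falls in each comparison, and, of other lists, at most 2 in each direction above 5 CPM. *Itga10* was named below that level, and a few defining markers were added after their values were seen. The members, gene lists and comparisons were chosen with earlier results of these data known. Scripts were tested on simulated counts. Tools were Python (3.11.15), pandas (2.3.3), scipy (1.17.1), matplotlib (3.10.9) and edgeR (4.0.16, for TMM factors only). Alternatives were TMM scaling, 2 CPM added, no filter, a 1.5-fold threshold, type IV chains alone and summed levels. The TGF-beta axis in gonadal WAT is not reported here.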

Additional observations from a re-analysis of the deposited data

Results flagged for a closer look

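Several collagens moved past 2-fold in opposite directions, or moved in 1 genotype against the other, under the same treatment. With 1 library in each group none of these differences was tested. With CORT in GRf/f, *Col5a1* changed by -1.2873 (log2) in gastrocnemius and by 1.2758 in gonadal WAT, and *Col6a1* by -1.4445 and 1.0685. Both had at least 32.9 CPM in every library of these tissues. *Col4a5* changed by -1.0848 in gastrocnemius and 1.0765 in gonadal WAT, from rows that named different transcripts and from levels of 0.339 to 2.53 CPM in muscle.

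In gastrocnemius *Col24a1* changed with CORT by -1.9346 in GRf/f and by 0.5655 in GRmKO, at 1.23 to 7.14 CPM over the 4 libraries. *Col26a1* changed by -1.9692 in GRf/f and by 1.7899 in GRmKO, with 2 of its 4 values at 0 and the others at 1.46 and 1.23 CPM, so that both numbers depend on the 0.5 CPM added.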

How the results depend on the processing

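No paired analysis was possible because each group had 1 library, and no library could be left out. No called value of a collagen gene changed sign under the alternatives run. TMM scaling moved the median of all genes by 0.14 (log2) in gastrocnemius and by 0.12 in gonadal WAT for CORT in GRmKO, and turned the sign of 4 small values in liver, *Col18a1* (in 2 comparisons), *Col1a2* and *Col4a1*. Under it the number of collagens differing 2-fold in either direction was 2 in place of 1 between genotypes in liver with CORT, and stayed within 1.5 times in the other 11 comparisons.

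With 2 CPM added in place of 0.5, that number was 11 for CORT in GRmKO gastrocnemius (median -0.68), 2 and 2 between genotypes in gastrocnemius with vehicle and CORT, 0 for CORT in GRmKO liver and between genotypes in liver with CORT, and 0 between genotypes in gonadal WAT with vehicle. At 1.5-fold it was 23 for CORT in GRf/f gastrocnemius, 8 and 14 between genotypes there, 5 for CORT in GRmKO liver, 4 and 6 between genotypes in liver, 19 and 17 for CORT in gonadal WAT, and 2 and 4 between genotypes in gonadal WAT. Without the filter the gonadal WAT medians were 0.24 and 0.26. The fibrillar minus basement membrane difference was the least stable value: by summed level -1.38 and -1.40 in gastrocnemius and -0.50 and -0.29 in gonadal WAT with CORT and 0.032 for CORT in GRf/f liver, without the filter -0.21 and -0.023 in gonadal WAT, and with type IV chains alone 0.43 for CORT in GRf/f liver and 1.02 between genotypes in gastrocnemius with CORT. Its sign changed in 4 of 12 comparisons by summed level, in 2 without the filter and in 2 with type IV chains alone, CORT in GRf/f gonadal WAT among them each time. At these totals genes near 1 CPM rest on few counts, which limits *Col9a1*, *Col13a1*, *Col16a1*, *Col20a1* and *Col26a1*.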
